A study of Rattus norvegicus with 36 samples.

Results

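The genes described here are 38 targets of the nuclear receptor PPARA and enzymes of fatty acid oxidation, read in rat liver after 5 days of dosing with PBDE47, a brominated flame retardant. They were taken as a list of gene symbols, and the brightest probe set that names a single gene, by its mean over the arrays, stood for each. On this platform 37 of the 38 had such a probe set, among 14217 genes with one in all. Acaa1a shares its only probe set with Acaa1b and was not analysed here.

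The samples were liver of male Harlan Sprague Dawley rats, 7 weeks old when dosing began, fed NTP-2000 diet without restriction. Every group, vehicle included, received corn oil by gavage for 5 consecutive days, and the left lobe was taken 1 day after the last dose. The upper PBDE47 doses were 485 and 48.5 mg/kg and the lower ones 4.85, 0.485 and 0.0485 mg/kg, and these groups and vehicle held 6 arrays each, 36 in all. The labels number these samples 1 to 6 in a group without saying which animal each came from, so p-values measure the spread between the samples as labelled. Values are log2 expression values made by the authors with RMA, a procedure that places all arrays on a shared distribution. The array medians lay between 5.31 and 5.38, arrays of a group correlated at 0.990 to 0.997 across probe sets, and 0 pairs of arrays held identical values. Arrays have no sequencing depth, so precision is limited by how many there are. The series asks which liver transcripts differ from vehicle at each dose.

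PPARA is a receptor of the nucleus that binds fatty acids and their derivatives, pairs with a retinoid X receptor and switches on genes for burning fat in the fasting liver. Fatty acids are taken up, joined to coenzyme A, carried into mitochondria as carnitine esters and shortened there step by step, while peroxisomes shorten the very long and branched chains. In rats and mice, drugs that activate PPARA raise many of these transcripts together and enlarge the peroxisome compartment.

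At 485 mg/kg the members did not move as a block. The long-chain carnitine carrier and the inner-membrane transferase (Slc25a20, Cpt2), the very-long-chain dehydrogenase (Acadvl), an electron carrier subunit (Etfa), both peroxisomal bifunctional enzymes (Ehhadh, Hsd17b4) and the thioesterases Acot2 and Acot8 were among the genes that rose. Cpt1a, the gate of mitochondrial oxidation, fell, along with Fabp1 and Acadm. In limma, with p-values adjusted by Benjamini-Hochberg over all 31042 probe sets, 10 of 37 members (27.0%) were higher than vehicle at an adjusted p below 0.05, 3 (8.11%) were lower and 24 were not called. Of all probe sets, 7.81% were called higher and 7.22% lower in that comparison, 15.0% in either direction. Members are bright genes, and 36 of the 37 lay among the 15521 brighter probe sets, of which 13.7% were called higher and 12.5% lower. The median log2 change was 0.09 over members and -0.01 over all probe sets, with members running from -0.83 to 0.69. The 6 arrays lay wholly above the vehicle arrays for 7 members and wholly below for 2, against 4.30% and 3.03% of all probe sets.

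At 48.5 mg/kg only Slc25a20 was called, 1 of 37 members (2.70%). Of all probe sets 3.39% were called there, and of the 15521 brighter ones 6.21%. Including Slc25a20, 8 members had an unadjusted p below 0.05 in limma, as did 4826 of all 31042 probe sets. The median log2 change over members was 0.00. At 0.0485, 0.485 and 4.85 mg/kg, limma called 0 members, and the ordinary test of the same model also called 0. The share of all probe sets called was 0%, 0% and 0.0193% at these doses. Unadjusted p-values under 0.05 were found for 6, 0 and 5 members, and for 1519, 1381 and 2006 of all 31042 probe sets. In the moderated F test over all doses, 13 members were called, where 13.0% of all probe sets were.

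**Figure D1:**
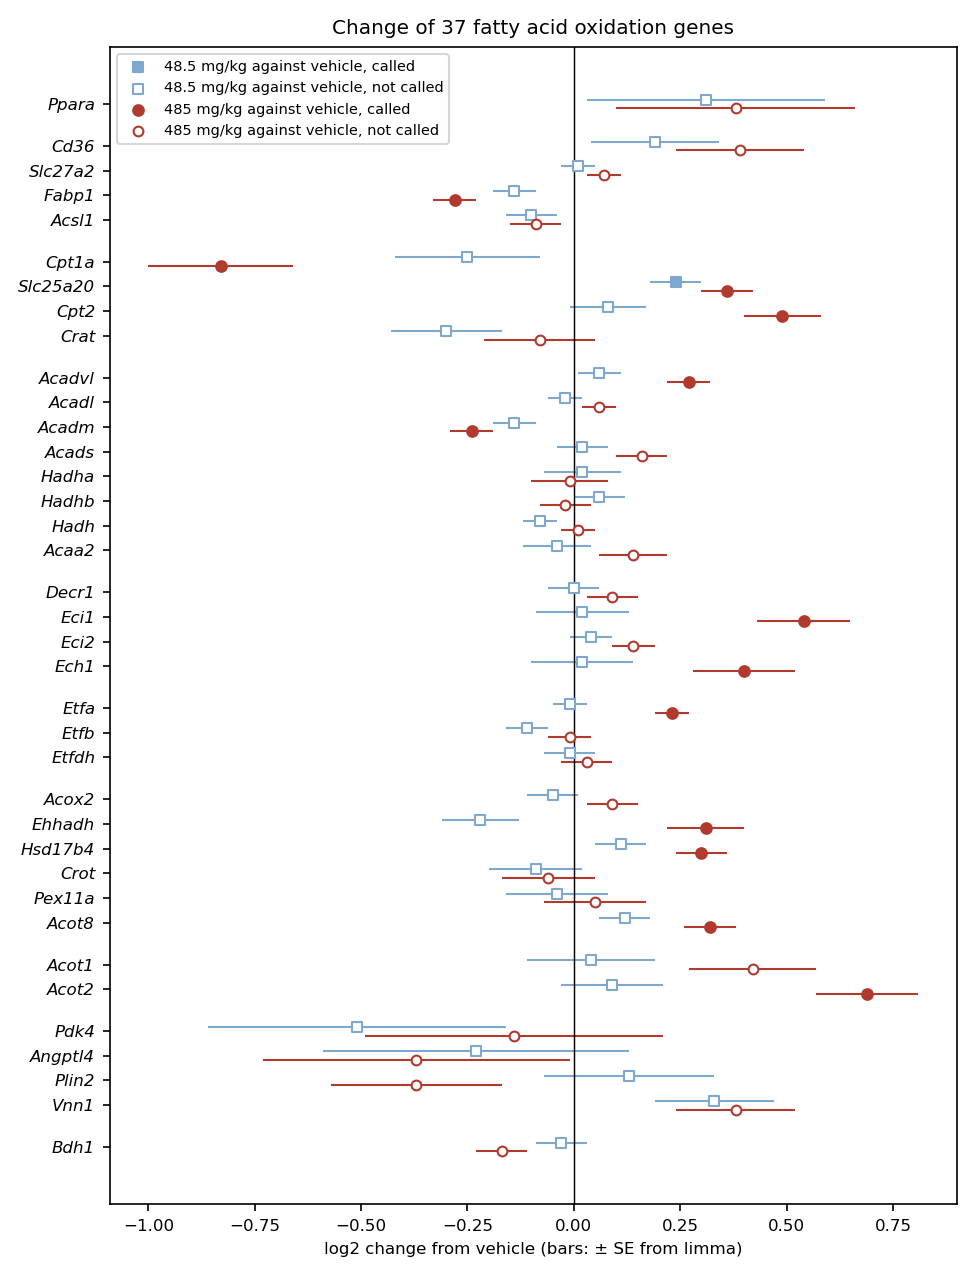
Log2 difference from vehicle (horizontal axis) of the 37 members at 48.5 and 485 mg/kg, with bars of 1 standard error from limma and filled points for calls at an adjusted p below 0.05. At 485 mg/kg 10 members are called to the right of 0 and 3 to the left, and at 48.5 mg/kg only Slc25a20 is called.

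Promoter sequence was read from RefSeq (GRCr8, 250 bases before to 50 after each gene's start) for 33 of the 38 listed genes, because PPARA is known to bind paired AGGTCA copies with a single base between them. The exact pair AGGTCANAGGTCA, searched on both strands like every motif here, was in 0 of the 33 member windows and in 0.0538% of the 33469 windows of the genome table. The looser pair AGGNCANAGGNCA, which includes the exact one, was in 1 member window (Fabp1) and 0.415% of all. NGGTCANAGGTCA, which also includes the exact pair, was in 1 member window (Acot8) and 0.102% of all. A single AGGTCA, contained in the exact pair and in NGGTCANAGGTCA, was in 8 member windows and 16.2% of all. The 250 bases upstream of 4 genes are shown: Acot2 and Cpt1a as the members with the largest rise and fall at 485 mg/kg, and Acot8 and Fabp1, chosen after the search, as the windows with a pair. Capitals mark the pair, whose first letter as printed is 22 bases before the Acot8 start and 77 before the Fabp1 start. A match is a match of letters only.
Acot2 (chr6:109342590-109342839, + strand): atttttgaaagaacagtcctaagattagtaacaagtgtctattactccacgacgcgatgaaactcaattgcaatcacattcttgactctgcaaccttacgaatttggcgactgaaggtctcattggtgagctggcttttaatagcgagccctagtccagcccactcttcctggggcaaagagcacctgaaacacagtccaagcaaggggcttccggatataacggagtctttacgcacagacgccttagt
Cpt1a (chr1:209995910-209996159, + strand): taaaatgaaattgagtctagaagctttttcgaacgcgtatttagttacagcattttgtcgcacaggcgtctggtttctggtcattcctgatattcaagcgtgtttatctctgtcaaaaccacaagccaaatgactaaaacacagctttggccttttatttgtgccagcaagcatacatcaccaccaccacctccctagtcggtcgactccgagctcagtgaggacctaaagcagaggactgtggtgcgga
Acot8 (chr3:173962189-173962438, - strand): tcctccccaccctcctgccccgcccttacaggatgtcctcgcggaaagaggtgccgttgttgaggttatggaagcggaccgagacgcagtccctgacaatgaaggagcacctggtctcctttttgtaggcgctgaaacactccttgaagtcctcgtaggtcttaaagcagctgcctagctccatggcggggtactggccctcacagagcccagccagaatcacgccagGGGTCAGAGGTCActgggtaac
Fabp1 (chr4:104749090-104749339, + strand): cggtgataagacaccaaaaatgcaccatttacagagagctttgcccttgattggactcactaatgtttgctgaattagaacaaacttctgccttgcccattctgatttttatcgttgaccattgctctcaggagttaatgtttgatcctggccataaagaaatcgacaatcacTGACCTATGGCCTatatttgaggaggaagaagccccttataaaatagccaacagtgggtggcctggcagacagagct

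Ppara itself was not called at any dose. Ppara values, as lowest, median and highest of 6 arrays, were 5.19, 6.19 and 6.97 in vehicle, 5.41, 6.21 and 7.03 at 0.0485, 6.07, 6.24 and 6.93 at 0.485, 5.62, 6.32 and 7.06 at 4.85, 6.21, 6.36 and 7.11 at 48.5 and 5.74, 6.58 and 7.33 at 485 mg/kg. The groups overlapped widely at every dose. Ppara at 485 mg/kg had a change of 0.38 ± 0.28 SE on the log2 scale and was not called (adjusted p = 0.4259, limma). Its residual SD of 0.52 was above that of 99.2% of all probe sets, and a p that misses the threshold does not show that the level held steady. Among 20 listed partners and coregulators of PPARA, 18 were measured. At 485 mg/kg 1 was called higher and 1 lower (5.56% each), against 7.81% and 7.22% of all probe sets. The gene called higher was Rxrg, a retinoid X receptor (log2 change 0.23 ± 0.07 SE, adjusted p = 0.03135, limma). That call was lost without replicate 1, 4 or 6 of vehicle or of 485 mg/kg (adjusted p = 0.05484 to 0.1023). The gene called lower was Crebbp, a histone acetyltransferase and coactivator (-0.33 ± 0.08, adjusted p = 0.005455, limma).

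Among the 4 genes of fatty acid uptake, binding and activation, 1 fell and none was called higher at 485 mg/kg. The shares over the 15521 brighter probe sets were 12.5% lower and 13.7% higher. Fabp1, the abundant fatty acid binding protein of the hepatocyte cytosol, was the brightest to change. Fabp1 values, as lowest, median and highest of 6 arrays, were 14.26, 14.30 and 14.36 in vehicle, 14.25, 14.31 and 14.34 at 0.0485, 14.20, 14.29 and 14.40 at 0.485, 14.22, 14.27 and 14.34 at 4.85, 14.09, 14.18 and 14.21 at 48.5 and 13.73, 14.07 and 14.16 at 485 mg/kg. All 6 values at 48.5 mg/kg and all 6 at 485 mg/kg lay below the lowest vehicle value, and at 48.5 mg/kg it was the 1 member of which this held, against 0.677% of all probe sets. At 48.5 mg/kg the change was -0.14 ± 0.05 SE on the log2 scale and was not called (adjusted p = 0.1327, limma). The level at 485 mg/kg was 1.21-fold lower, a log2 change of -0.28 ± 0.05 SE (n = 6 per group, adjusted p = 8.17e-05, limma). Markers of hepatocytes shifted the same way on these arrays: 5 of 8 were called lower at 485 mg/kg and 2 of 8 at 48.5 mg/kg. Of the 15521 brighter probe sets, 12.5% and 1.33% were called lower at these doses. With only the 12 arrays compared, the call of Ttr at 485 mg/kg and those of Fgb and Cps1 at 48.5 mg/kg were lost. None of the 8 markers was called higher at either dose, and their part in the Fabp1 result was not tested. In whole liver, fewer cells of a type and less RNA per cell cannot be told apart. Cd36, a fatty acid translocase, had a log2 change of 0.39 ± 0.15 SE at 485 mg/kg (adjusted p = 0.0655, limma). Without replicate 3 or replicate 5 of the 485 mg/kg group its adjusted p was 0.03506 or 0.04372. Slc27a2, a transporter and synthetase of very-long-chain acids, and Acsl1, the main hepatic long-chain acyl-CoA synthetase, had changes of 0.07 ± 0.04 and -0.09 ± 0.06.

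The carnitine shuttle split, with Slc25a20 and Cpt2 higher at 485 mg/kg and Cpt1a lower. Cpt1a makes the carnitine ester at the outer mitochondrial membrane and sets the rate of entry. Cpt1a values, as lowest, median and highest of 6 arrays, were 11.16, 11.63 and 11.81 in vehicle, 11.03, 11.30 and 11.98 at 0.0485, 10.89, 11.23 and 11.77 at 0.485, 11.12, 11.25 and 11.57 at 4.85, 10.88, 11.29 and 11.59 at 48.5 and 10.02, 10.81 and 11.22 at 485 mg/kg. The 485 mg/kg values overlapped the bottom of the vehicle range, because the highest of them, 11.22, exceeded the lowest vehicle value of 11.16. Cpt1a fell by 0.83 on the log2 scale with an SE of 0.17, a level 1.77-fold lower (n = 6 per group, adjusted p = 5.52e-04, limma). A second probe set of the gene gave -0.85 ± 0.18 (adjusted p = 5.33e-04, limma).

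Slc25a20 carries acylcarnitine across the inner membrane. Slc25a20 values, as lowest, median and highest of 6 arrays, were 9.43, 9.62 and 9.76 in vehicle, 9.68, 9.78 and 9.88 at 0.0485, 9.60, 9.70 and 9.81 at 0.485, 9.66, 9.76 and 9.85 at 4.85, 9.67, 9.88 and 9.99 at 48.5 and 9.84, 9.98 and 10.12 at 485 mg/kg. All 6 arrays at 485 mg/kg exceeded the highest vehicle array, and at 48.5 mg/kg the ranges overlapped. The change at 48.5 mg/kg was 0.24 ± 0.06 SE on the log2 scale, 1.18-fold higher (adjusted p = 0.01585, limma). That call was lost without vehicle replicate 3 (0.20, adjusted p = 0.05956) and without replicate 3 of the 48.5 mg/kg group (0.21, adjusted p = 0.05078). The change at the top dose was 0.36 ± 0.06 SE on the log2 scale, 1.28-fold higher (adjusted p = 1.93e-05, limma). Cpt2, which turns acylcarnitine back into acyl-CoA inside the mitochondrion, separated fully at the top dose. Cpt2 values, as lowest, median and highest of 6 arrays, were 9.86, 10.31 and 10.42 in vehicle, 10.15, 10.34 and 10.58 at 0.0485, 10.11, 10.16 and 10.56 at 0.485, 10.02, 10.17 and 10.29 at 4.85, 10.09, 10.31 and 10.64 at 48.5 and 10.51, 10.75 and 10.83 at 485 mg/kg. Its change at 485 mg/kg was 0.49 ± 0.09 SE on the log2 scale, 1.40-fold higher (adjusted p = 1.64e-04, limma). Crat, the carnitine acetyltransferase, had changes of -0.30 ± 0.13 at 48.5 mg/kg and -0.08 ± 0.13 at 485 mg/kg, neither called.

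The 8 enzymes of the mitochondrial spiral showed 1 rise and 1 fall at 485 mg/kg, both among the acyl-CoA dehydrogenases, which differ in the chain length they accept. These shares, 12.5% each, were close to the 13.7% higher and 12.5% lower among the 15521 brighter probe sets. Acadvl, for very long chains, rose. Acadvl values, as lowest, median and highest of 6 arrays, were 10.71, 10.79 and 10.96 in vehicle, 10.84, 10.91 and 10.99 at 0.0485, 10.75, 10.86 and 10.94 at 0.485, 10.87, 10.93 and 10.96 at 4.85, 10.80, 10.90 and 10.95 at 48.5 and 10.97, 11.11 and 11.18 at 485 mg/kg. At the top dose the values began just above the highest vehicle value. At that dose Acadvl was 1.21-fold higher, a log2 change of 0.27 ± 0.05 SE (adjusted p = 4.24e-05, limma). Acadm, for medium chains, fell. Acadm values, as lowest, median and highest of 6 arrays, were 12.71, 12.74 and 12.80 in vehicle, 12.61, 12.72 and 12.78 at 0.0485, 12.59, 12.74 and 12.81 at 0.485, 12.64, 12.75 and 12.82 at 4.85, 12.47, 12.59 and 12.72 at 48.5 and 12.35, 12.53 and 12.59 at 485 mg/kg. The 485 mg/kg range lay below the vehicle range, and the 48.5 mg/kg range overlapped it. The change at 485 mg/kg was -0.24 ± 0.05 SE on the log2 scale, 1.18-fold lower (adjusted p = 3.83e-04, limma). At 48.5 mg/kg it had a change of -0.14 ± 0.05 SE on the log2 scale and was not called (adjusted p = 0.09075, limma). Acads, for short chains, was not called (0.16 ± 0.06, adjusted p = 0.07844, limma), though its adjusted p was 0.01129 without vehicle replicate 2, and Acadl, for long chains, had a change of 0.06 ± 0.04.

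The remaining enzymes of the spiral were not called at 485 mg/kg. The subunits of the trifunctional protein, Hadha and Hadhb, had log2 changes of -0.01 ± 0.09 and -0.02 ± 0.06. Hadh, the short-chain hydroxyacyl-CoA dehydrogenase, had 0.01 ± 0.04. Acaa2, the mitochondrial thiolase, had 0.14 ± 0.08 on its brightest probe set and -0.41 ± 0.15 (adjusted p = 0.05604, limma) on a dimmer one.

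All 4 enzymes that handle double bonds in unsaturated chains had positive changes at 485 mg/kg, and 2 of them passed the test. Among the 15521 brighter probe sets 13.7% were called higher at that dose. The shared sign was not particular to the top dose. All 4 were also positive at 0.0485 and 4.85 mg/kg, with medians of 0.16 and 0.10, and none was called there. Eci1, an enoyl-CoA isomerase of mitochondria, led them at 485 mg/kg. Eci1 values, as lowest, median and highest of 6 arrays, were 11.25, 11.60 and 12.06 in vehicle, 11.71, 11.87 and 12 at 0.0485, 11.55, 11.81 and 12.02 at 0.485, 11.52, 11.90 and 11.98 at 4.85, 11.25, 11.80 and 11.83 at 48.5 and 11.95, 12.17 and 12.54 at 485 mg/kg. The 485 mg/kg values stood at the top of the vehicle range and overlapped it. The difference was 0.54 ± 0.11 SE on the log2 scale, 1.46-fold higher (adjusted p = 5.92e-04, limma). A dimmer probe set of Eci1, with a mean of 4.58 over all arrays, had 0.09 ± 0.10 and was not called (adjusted p = 0.6558, limma). Ech1 moves bonds in dienoyl chains. Ech1 values, as lowest, median and highest of 6 arrays, were 10.32, 10.65 and 10.87 in vehicle, 10.49, 10.95 and 11.18 at 0.0485, 10.37, 10.61 and 10.82 at 0.485, 10.51, 10.68 and 10.89 at 4.85, 10.35, 10.60 and 11.04 at 48.5 and 10.71, 11.04 and 11.36 at 485 mg/kg. Its top-dose range overlapped that of vehicle. Ech1 at 485 mg/kg was 1.32-fold higher, a log2 change of 0.40 ± 0.12 SE (adjusted p = 0.01977, limma). The Ech1 call was lost without vehicle replicate 3 (adjusted p = 0.06652) or 6 (0.0575), and without 485 mg/kg replicate 2 (0.0565) or 4 (0.06912). Eci2, the related isomerase, had 0.14 ± 0.05 (adjusted p = 0.08069, and 0.03165 without vehicle replicate 5, limma). Decr1, the dienoyl-CoA reductase, had 0.09 ± 0.06.

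Electrons from the acyl-CoA dehydrogenases pass to the electron transfer flavoprotein, whose subunits are encoded by Etfa and Etfb. Etfa had a narrow spread, with a residual SD of 0.06 that only 0.412% of all probe sets undercut. Etfa values, as lowest, median and highest of 6 arrays, were 12.16, 12.28 and 12.34 in vehicle, 12.20, 12.29 and 12.38 at 0.0485, 12.25, 12.28 and 12.28 at 0.485, 12.23, 12.25 and 12.40 at 4.85, 12.15, 12.28 and 12.32 at 48.5 and 12.41, 12.49 and 12.56 at 485 mg/kg. All 6 values at 485 mg/kg exceeded every value of the other 5 groups. Against vehicle the difference was 0.23 ± 0.04 SE on the log2 scale, 1.17-fold higher (adjusted p = 1.12e-04, limma). Etfb, the partner subunit, had -0.01 ± 0.05, and Etfdh, the oxidoreductase that takes the electrons onward, had 0.03 ± 0.06. The difference between subunits was not tested.

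Of 6 measured peroxisomal genes, 3 rose at 485 mg/kg and none was called lower. Ehhadh and Hsd17b4 are the bifunctional enzymes that hydrate and dehydrogenate peroxisomal enoyl-CoA, with opposite stereochemistry. Ehhadh values, as lowest, median and highest of 6 arrays, were 11.10, 11.25 and 11.34 in vehicle, 11.26, 11.43 and 11.57 at 0.0485, 11.06, 11.27 and 11.44 at 0.485, 11.28, 11.47 and 11.63 at 4.85, 10.84, 10.98 and 11.31 at 48.5 and 11.25, 11.59 and 11.87 at 485 mg/kg. The Ehhadh medians did not follow the dose order, with the lowest at 48.5 mg/kg and the highest at 485 mg/kg. Against vehicle the 485 mg/kg difference was 0.31 ± 0.09 SE on the log2 scale, 1.24-fold higher (adjusted p = 0.01188, limma). With single arrays left out, the adjusted p reached 0.04999, just under the threshold. The 48.5 mg/kg difference was -0.22 ± 0.09 SE on the log2 scale and was not called (adjusted p = 0.173, limma).

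Hsd17b4 values, as lowest, median and highest of 6 arrays, were 11.83, 11.89 and 12 in vehicle, 11.78, 12.01 and 12.07 at 0.0485, 11.85, 11.90 and 11.94 at 0.485, 11.79, 12.01 and 12.10 at 4.85, 11.88, 12 and 12.18 at 48.5 and 12.10, 12.19 and 12.34 at 485 mg/kg. The 485 mg/kg arrays lay above the vehicle arrays. Hsd17b4 at 485 mg/kg was 1.23-fold higher, a log2 change of 0.30 ± 0.06 SE (adjusted p = 3.81e-04, limma). Acot8 is the thioesterase of the peroxisome matrix. Acot8 values, as lowest, median and highest of 6 arrays, were 8.42, 8.49 and 8.63 in vehicle, 8.48, 8.59 and 8.68 at 0.0485, 8.49, 8.62 and 8.68 at 0.485, 8.49, 8.63 and 8.76 at 4.85, 8.49, 8.63 and 8.78 at 48.5 and 8.72, 8.82 and 9 at 485 mg/kg. At 485 mg/kg every array again lay above all vehicle arrays. The Acot8 difference was 0.32 ± 0.06 SE on the log2 scale, 1.25-fold higher (adjusted p = 6.85e-05, limma). Acox2, an oxidase of branched chains and bile acid intermediates, had a change of 0.09 ± 0.06, the carnitine octanoyltransferase Crot -0.06 ± 0.11 and the peroxisome division protein Pex11a 0.05 ± 0.12. None of these 3 was called.

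Acyl-CoA thioesterases release free fatty acid from coenzyme A, and the mitochondrial member Acot2 had the largest rise of the set. Acot2 values, as lowest, median and highest of 6 arrays, were 9.07, 9.32 and 9.79 in vehicle, 9.25, 9.50 and 9.72 at 0.0485, 9.25, 9.34 and 9.89 at 0.485, 9.25, 9.46 and 9.62 at 4.85, 9.06, 9.51 and 9.72 at 48.5 and 9.84, 9.99 and 10.42 at 485 mg/kg. All 6 arrays at 485 mg/kg exceeded the highest vehicle and 48.5 mg/kg arrays. The change against vehicle was 0.69 ± 0.12 SE on the log2 scale, 1.61-fold higher (adjusted p = 4.49e-05, limma). Its other probe sets gave 0.54 ± 0.12 (adjusted p = 9.41e-04) and 0.70 ± 0.13 (adjusted p = 1.47e-04, limma). Acot1, the cytosolic relative, averaged 3.21 in vehicle, below the array medians, and had a change of 0.42 ± 0.15 (adjusted p = 0.06502, limma). Without vehicle replicate 5 or 485 mg/kg replicate 3 or 6 its adjusted p was 0.04156, 0.03054 or 0.01227. Acot1, Acot2, Acot3, Acot4, Acot5 and Acot6 are similar neighbours on chromosome 6 of the RefSeq table, so a probe set named for a single gene may also bind transcripts of another.

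The 4 other classical PPARA targets were not called at 485 mg/kg. At an unadjusted p below 0.05 there was 1 of the 4 in limma, and 3 had wide spreads. Angptl4, a secreted inhibitor of lipoprotein lipase, had a residual SD of 0.68 and a log2 change of -0.37 ± 0.36. Pdk4, the kinase that shuts down pyruvate dehydrogenase, had an SD of 0.66 and a change of -0.14 ± 0.35. These SDs exceeded those of 99.7% and 99.6% of all probe sets. Vnn1, a pantetheinase, had 0.38 ± 0.14 (adjusted p = 0.05746, limma). Its adjusted p was 0.01689, 0.02035 and 0.02971 without vehicle replicate 4, vehicle replicate 5 and 485 mg/kg replicate 1.

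Plin2, the coat protein of lipid droplets, had a residual SD of 0.36, above 97.8% of all probe sets, and gave different answers by probe set. Its brightest probe set, the one used here, had a change of -0.37 ± 0.20 (adjusted p = 0.2299, limma). A dimmer one, with a mean of 6.80 over all arrays, had -0.93 ± 0.14 (adjusted p = 3.08e-06, limma). Bdh1, the mitochondrial dehydrogenase that forms beta-hydroxybutyrate, showed the same kind of gap. It had -0.17 ± 0.06 on the brightest probe set (adjusted p = 0.06218) and -0.49 ± 0.09 on the other (adjusted p = 7.70e-05, limma). Without vehicle replicate 4 or 485 mg/kg replicate 4 or 5 the former's adjusted p was 0.01619, 0.03381 or 0.03822. In all, 12 members had several probe sets, 28 together.

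**Figure D2:**
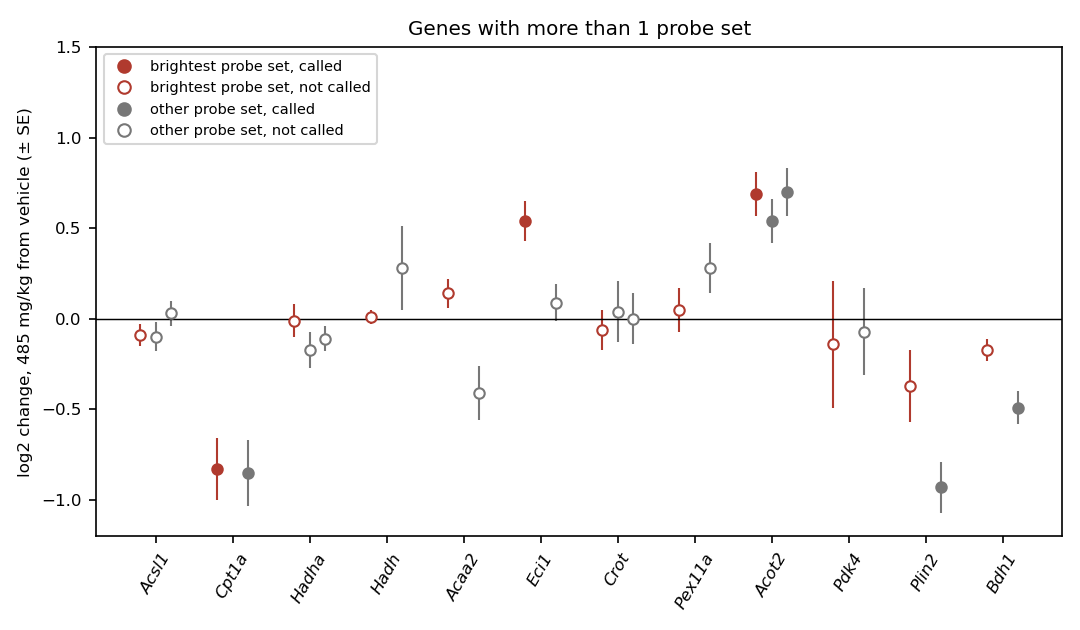
Log2 difference between 485 mg/kg and vehicle for the 28 probe sets of the 12 members that have several, with bars of 1 standard error and filled points for calls. The 3 probe sets of Acot2 and both of Cpt1a lie close together, while those of Plin2, Bdh1, Acaa2 and Eci1 lie apart.

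**Figure D3:**
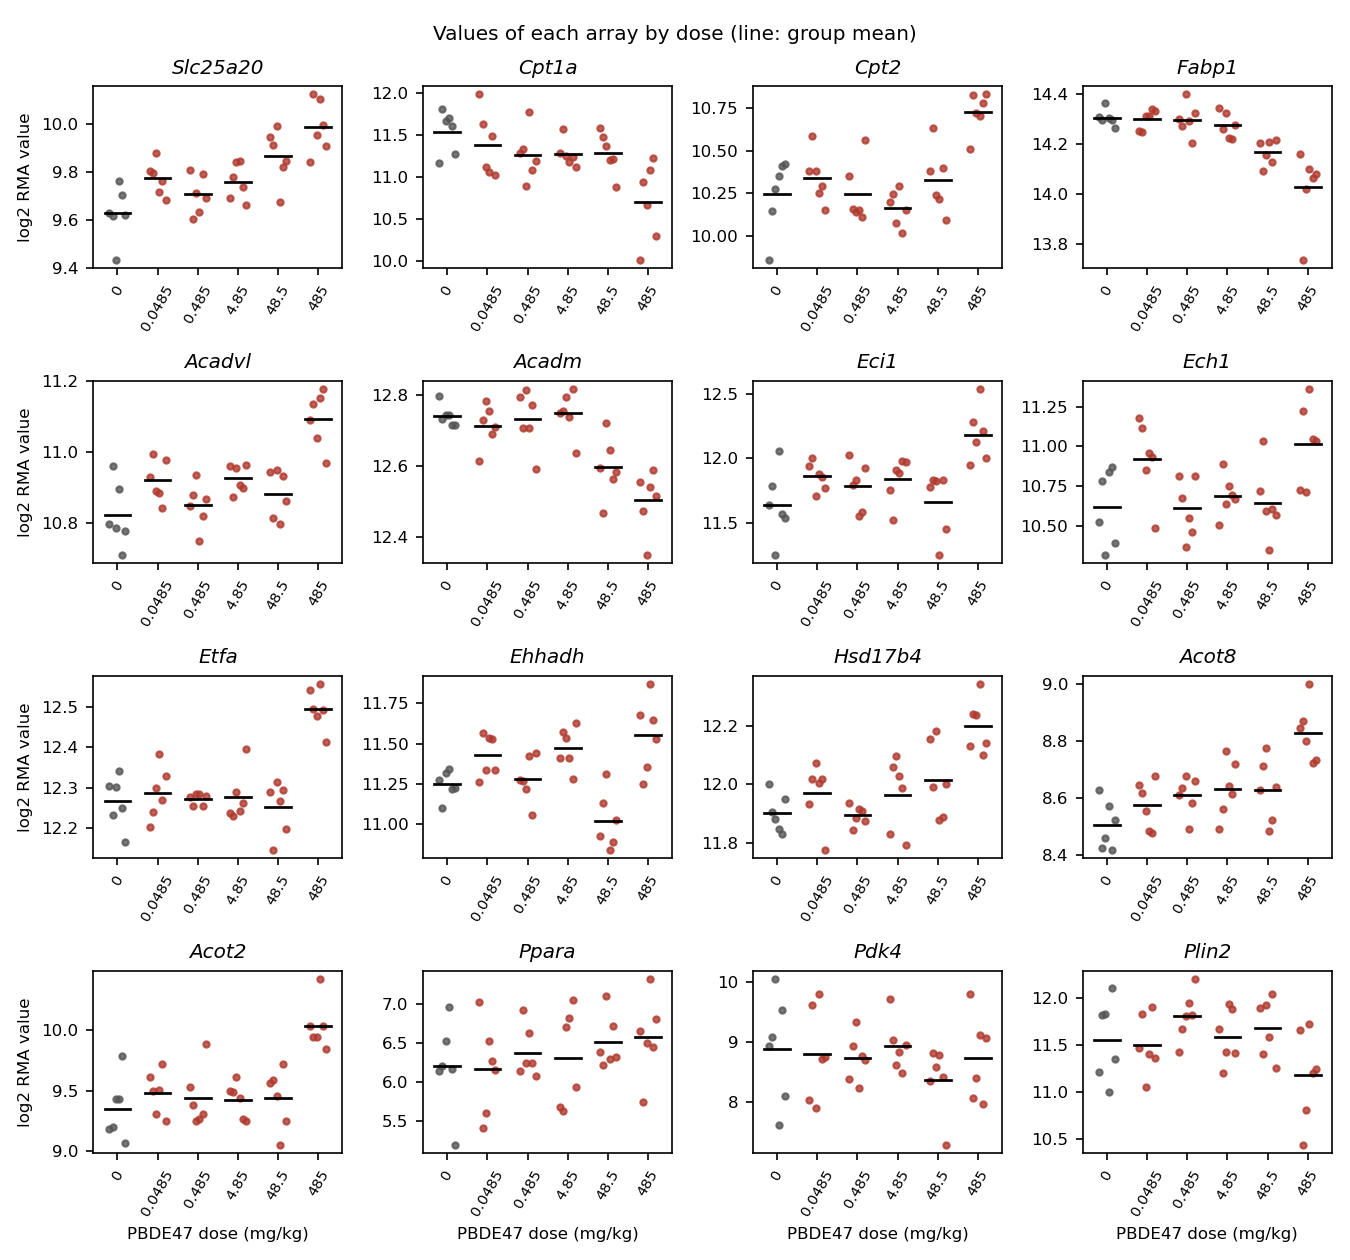
Log2 RMA value of each array by dose for 16 members, with 6 points and the group mean as a line at each dose; each panel has its own vertical scale, which does not start at 0. Acot2, Cpt2, Etfa and Slc25a20 stand above vehicle at 485 mg/kg, Fabp1 and Acadm below, and the Ppara points of all groups overlap.

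Comparing 485 with 48.5 mg/kg directly, 7 members were higher and 1 was lower, 21.6% of 37, where 4.86% of all probe sets and 8.60% of the 15521 brighter ones were called. The 485 mg/kg arrays lay wholly above the 48.5 mg/kg arrays for 4 members, against 1.45% of all probe sets. All 8 had also been called against vehicle at 485 mg/kg, in the same direction. The vehicle comparison and this one share the 485 mg/kg arrays. The step in Ehhadh was 0.53 ± 0.09 SE on the log2 scale, 1.45-fold higher (adjusted p = 9.92e-05, limma). Acot2 was 1.52-fold higher, a log2 change of 0.60 ± 0.12 SE (adjusted p = 0.001103, limma). Eci1 was 1.44-fold higher, a log2 change of 0.52 ± 0.11 SE (adjusted p = 0.003255, limma). Its dimmer probe set had a step of 0.11 ± 0.10 and was not called (adjusted p = 0.6624, limma). The steps in Cpt2 (0.40 ± 0.09), Etfa (0.25 ± 0.04) and Acadvl (0.21 ± 0.05) had adjusted p-values of 0.00529, 2.09e-04 and 0.003999 in limma. Acot8 was 1.15-fold higher, a log2 change of 0.20 ± 0.06 SE (adjusted p = 0.03208, limma). Cpt1a had a log2 step of -0.58 ± 0.17 SE (adjusted p = 0.04041, limma). The second Cpt1a probe set had -0.55 ± 0.18 and was not called (adjusted p = 0.06218, limma). The calls for Acot8 and Cpt1a were lost when single arrays were left out. For Acot8 this held without 48.5 mg/kg replicate 1, 4, 5 or 6 or 485 mg/kg replicate 1, 2 or 4, with adjusted p-values of 0.05024 to 0.09947. For Cpt1a it held without 48.5 mg/kg replicate 1, 2, 3, 4 or 5 or 485 mg/kg replicate 1, 3 or 6, with adjusted p-values of 0.05528 to 0.1513. Slc25a20, Hsd17b4, Ech1, Fabp1 and Acadm, called against vehicle, were not called in the step. For Slc25a20, Fabp1 and Acadm the log2 steps were 0.12 ± 0.06, -0.14 ± 0.05 and -0.09 ± 0.05. Ech1 had a step of 0.37 ± 0.12 (adjusted p = 0.06715, limma) and passed the threshold without 48.5 mg/kg replicate 2 or 485 mg/kg replicate 1 or 3. Hsd17b4 had 0.18 ± 0.06 (adjusted p = 0.073, limma) and passed it without 48.5 mg/kg replicate 1 or 3. The dimmer probe sets of Plin2 (-0.53 ± 0.14, adjusted p = 0.01496) and Bdh1 (-0.33 ± 0.09, adjusted p = 0.02089, limma) were called lower in the step. The brightest probe sets of these genes, used for the counts, were not called.

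At the 3 lower doses no member's change was called. The median log2 change over all probe sets was 0.00 at each of these doses, and the share of all probe sets with a positive change was not counted. At 0.0485 mg/kg 29 of 37 members had a positive change, with a median of 0.07 and a range of -0.15 to 0.30. Ech1 had the highest, 0.30 ± 0.12 (adjusted p = 0.9999, limma). At 0.485 mg/kg 24 were positive, with a median of 0.02. At 4.85 mg/kg 32 were positive, with a median of 0.06 and a range of -0.26 to 0.45. Angptl4 had the highest, with a mean of 10.08 against 9.63 in vehicle, and Ehhadh had 0.23 ± 0.09 (adjusted p = 0.6127, limma). These comparisons share the vehicle arrays, so their directions are not separate observations. The median over members, taken per array as the difference from the vehicle mean, ran from -0.04 to 0.07 in vehicle, -0.10 to 0.11 at 48.5 mg/kg and 0.02 to 0.28 at 485 mg/kg, with overlapping ranges. The highest, 0.28, was 485 mg/kg replicate 4, and the other 5 arrays of that group ran from 0.02 to 0.13. Without that array 9 members were called higher and 4 lower than vehicle at 485 mg/kg.

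**Figure D4:**
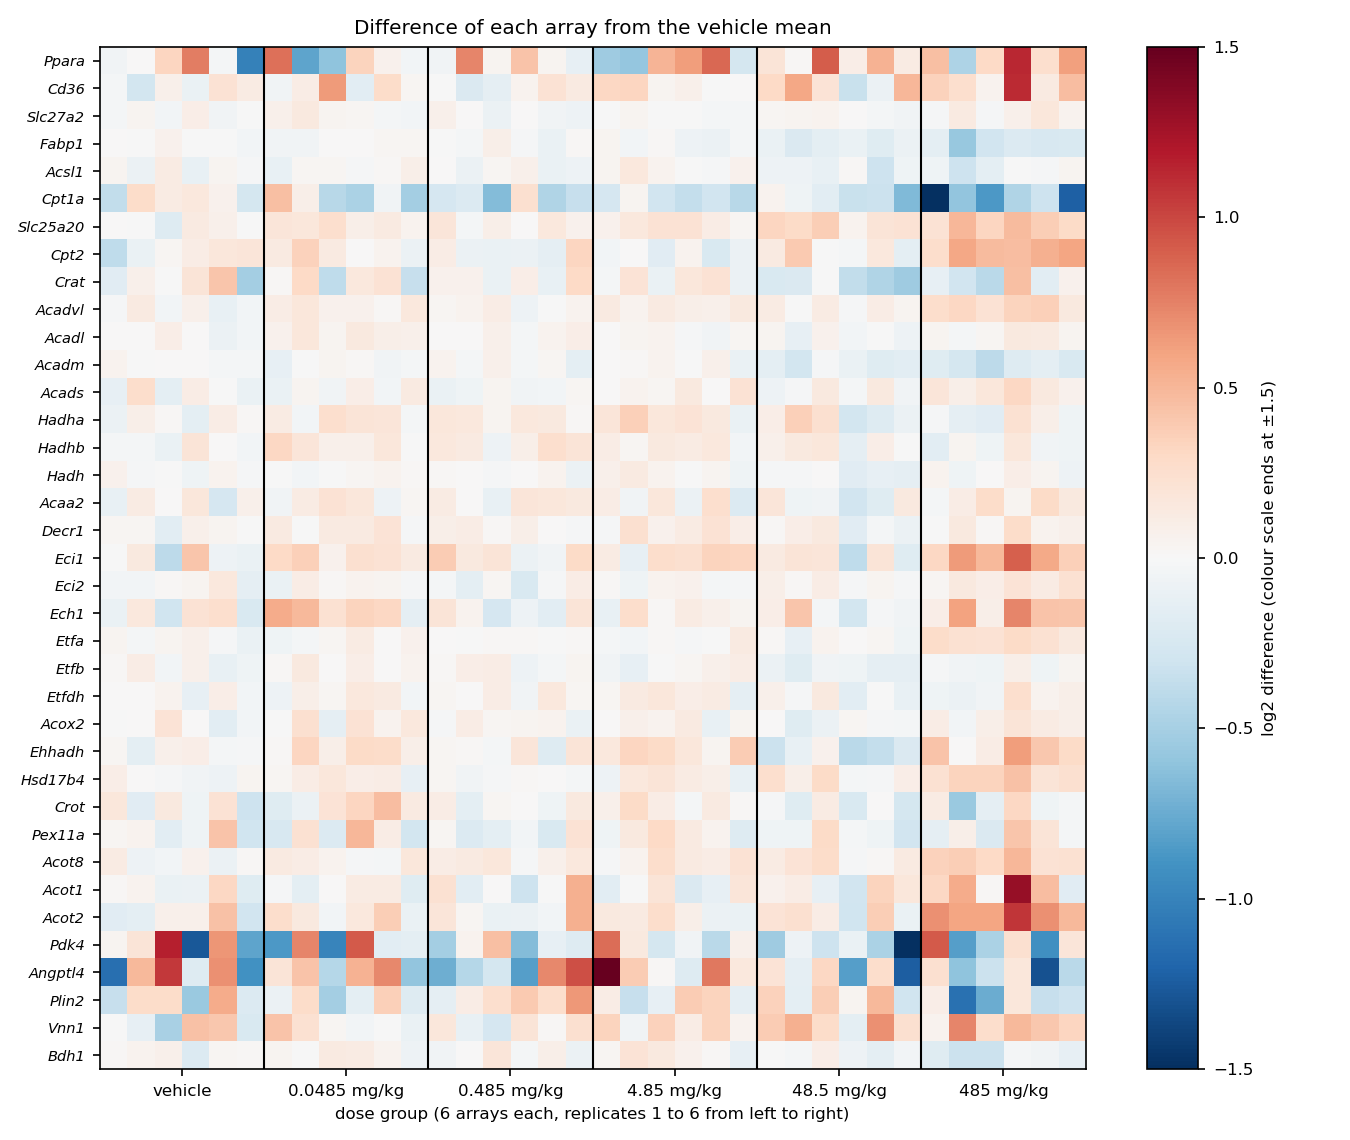
Difference of each array's log2 value from the vehicle mean, for 37 members (vertical, by role) and 36 arrays (horizontal, by dose), on a colour scale ending at -1.5 and 1.5. The 485 mg/kg block shows higher values for Acot2, Eci1 and Cpt2 and lower values for Cpt1a, and Angptl4, Pdk4 and Ppara vary between arrays in every block.

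Further genes of the pathway were read from lists that hold no member. Among 30 measured of 34 further PPARA targets, 7 rose (23.3%) and 5 fell (16.7%), and the median log2 change was 0.07. The shares over the 15521 brighter probe sets were 13.7% higher and 12.5% lower, and 7.81% and 7.22% over all. Cyp4a8, a fatty acid hydroxylase, changed by 2.12 ± 0.21 (adjusted p = 9.07e-10, limma) from a vehicle mean of 5.14 that lay below the array medians, so the fold is not exact. Me1, the malic enzyme that supplies NADPH, changed by 1.64 ± 0.12 (adjusted p = 3.23e-13, limma), and the lipid droplet protein Cidea by 1.64 ± 0.30 (adjusted p = 1.18e-04, limma). Mgll, a monoglyceride lipase, changed by 1.17 ± 0.09 (adjusted p = 1.27e-12, limma). Cyp4a1 and Cyp4a3, related hydroxylases of the same list, fell by 0.47 (SE 0.16, adjusted p = 0.04602) and 0.40 (SE 0.11, adjusted p = 0.01146, limma) on the log2 scale. They are named here outside the rule used for the other genes, after their values were seen. The Cyp4a1 call was lost without vehicle replicate 1, 3, 4, 5 or 6 or 485 mg/kg replicate 1, 2, 3 or 5 (adjusted p = 0.0536 to 0.1593), and the Cyp4a3 call without vehicle replicate 5 (0.05149). Cyp4a1 was also not called by the ordinary test (adjusted p = 0.06754) or by limma on only the 12 arrays compared (adjusted p = 0.09566). The activity of PPARA was not tested.

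Among 22 measured of 26 further peroxisomal genes, 6 rose (27.3%) and 4 fell (18.2%) at 485 mg/kg, to be read against the same shares. Abcd2, an importer of very-long-chain acyl-CoA, changed by 1.34 ± 0.13 (adjusted p = 6.33e-10, limma) from a vehicle mean of 5.22, again below the array medians. Decr2, the peroxisomal dienoyl-CoA reductase, changed by 0.58 ± 0.08 (adjusted p = 9.01e-07) and Pex7, an import receptor, by 0.45 ± 0.05 (adjusted p = 8.13e-09, limma). Hacl1, a lyase of alpha-oxidation, changed by -0.52 ± 0.17 (adjusted p = 0.03651, limma), a call lost without vehicle replicate 2, 4 or 6 or 485 mg/kg replicate 1, 3 or 4 (adjusted p = 0.05792 to 0.1128). Of 4 measured among 6 ketone body genes, 2 rose and 1 fell. These were Bdh2 (0.90 ± 0.23, adjusted p = 0.005843), Acat1, the acetoacetyl-CoA thiolase (0.28 ± 0.06, adjusted p = 6.12e-04), and the monocarboxylate transporter Slc16a1 (-0.84 ± 0.13, adjusted p = 9.56e-06, limma). At 48.5 mg/kg, where 1 member was called, 3 of the 30 further targets rose (10.0%) and none fell. They were led by Cyp4a8 (1.73 ± 0.21, adjusted p = 7.00e-07) and Me1 (0.76 ± 0.12, adjusted p = 5.28e-05, limma). Of the 22 peroxisomal genes, 2 rose (9.09%) and 1 fell (4.55%) there, led by Abcd2 (0.99 ± 0.13, adjusted p = 3.76e-06, limma). Of the 15521 brighter probe sets, 4.88% were called higher and 1.33% lower at that dose. Of all probe sets, 3.39% were called in either direction. Of PPARA partners and ketone body genes, limma called 0 at that dose, with 1 and 0 at an unadjusted p below 0.05.

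Cell type markers were read on the same arrays. At 485 mg/kg 7.22% of all probe sets were called lower and 7.81% higher, and 12.5% and 13.7% of the 15521 brighter ones. At 48.5 mg/kg 1.33% of the brighter ones were called lower and 4.88% higher. The tissue label was borne out by hepatocyte genes such as Alb and Ttr, with vehicle means of 15.06 and 14.65. At 485 mg/kg 5 of 8 measured hepatocyte markers were called lower and none higher, and the list's median log2 difference from the vehicle mean, taken per array, ran from -0.25 to -0.20, against -0.01 to 0.02 in vehicle. The named falls were Fgb (-0.31 ± 0.04, adjusted p = 1.64e-07) and Apoa1 (-0.31 ± 0.06, adjusted p = 4.55e-04, limma). Ttr, 1 of the 5 called lower, was not called with quantile normalization (-0.06, adjusted p = 0.2293) or with only the 12 arrays compared (-0.11, adjusted p = 0.14, limma). Of 6 Kupffer cell and macrophage markers, 3 were lower, and the list median per array ran from -0.76 to -0.08, against -0.07 to 0.25 in vehicle. Clec4f and Cd163 changed by -0.62 ± 0.18 and -0.54 ± 0.13 (adjusted p = 0.01584 and 0.00199, limma). Of 6 endothelial markers 2 were lower (Kdr -0.43 ± 0.08, adjusted p = 9.89e-05, and Pecam1 -0.27 ± 0.09, adjusted p = 0.02661, limma), with a list median of -0.35 to -0.12 against -0.12 to 0.13. Of 6 adipocyte markers 1 was lower (Cfd, -0.43 ± 0.11, adjusted p = 0.005049, limma), of 5 stellate markers limma called 0, with 0 at an unadjusted p below 0.05, and of 4 cholangiocyte markers 1 was higher (Epcam, 0.60 ± 0.10, adjusted p = 3.02e-05, limma). The list medians per array ran from -0.20 to 0.01, -0.20 to 0.08 and -0.24 to 0.10 in these 3 lists, against -0.21 to 0.14, -0.32 to 0.25 and -0.16 to 0.48 in vehicle. The call of Clec4f was lost without 485 mg/kg replicate 6 (adjusted p = 0.05275), and that of Pecam1 without vehicle replicate 2, 3 or 6 or 485 mg/kg replicate 1, 2 or 6 (0.05549 to 0.06806). At 48.5 mg/kg the hepatocyte list median per array ran from -0.12 to -0.02, and the 2 called lower were Fgb (-0.14 ± 0.04, adjusted p = 0.03582, all 6 arrays below vehicle) and Cps1 (-0.21 ± 0.05, adjusted p = 0.01051, limma). Epcam was the only other marker called there (0.40 ± 0.10, adjusted p = 0.01775, limma). Of these, the Fgb call was lost without vehicle replicate 2, 3 or 5 or 48.5 mg/kg replicate 4, 5 or 6 (adjusted p = 0.05394 to 0.1055), and the Epcam call without vehicle replicate 1 or 48.5 mg/kg replicate 3 or 5 (0.05107 to 0.0569). With only the 12 arrays compared, the Fgb and Cps1 calls were lost (adjusted p = 0.1874 and 0.09513, limma). The part of these shifts in the other members' results was not tested. As a sign of RNA quality, signal at the 3' end of control genes minus that at the 5' end averaged between -0.14 and -0.05 for Gapdh and between 1.15 and 1.26 for Actb over the 6 groups.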

How the data were processed

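Total RNA of 36 liver samples was amplified with the 3' IVT Plus kit and hybridised to 1 Affymetrix array per sample, per the labels' protocols. The deposited values are log2 values that the authors computed by RMA in the R package affy, per the submitters' processing notes, whose versions are not given in the sources used here. RMA places all arrays on a shared distribution.

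Of 31099 probe sets, 57 controls were left out. The platform table gave 20826 of the other 31042 a single gene, 436 several and 9780 none. Names were updated through Entrez identifiers to RefSeq (GRCr8). Groups came from the titles. All arrays were fitted together, with group as the only factor, in limma 3.58.1 (R 4.3.3; 30 residual and 5.26 prior degrees of freedom), two-sided, with Benjamini-Hochberg adjustment over all 31042 probe sets in each comparison and calls at an adjusted p below 0.05. The procedure was tested on simulated data. The study named R/maanova with a false discovery rate under 5%; the ordinary test of the same model stood in for it. Replicate numbers were not used to pair samples in this fit. Over 90 same-numbered pairs the correlation of deviations from group means ran from -0.18 to 0.23, and 19 exceeded 0.1. The median was 0.01, against 0.00 for pairs with different numbers and doses. A shared batch or day was not tested.

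The members and lists were chosen with earlier results of these data known. Group values were given for members called at 485 or 48.5 mg/kg and for Ppara, and from each further list up to 4 called genes, or 2 for markers, with the largest change. Alternatives were a replicate block, quantile normalization, median centring, a filter on dim probe sets, the ordinary test, trended robust moderation, only the 12 arrays compared, averaging the probe sets of a gene, a 1.5-fold minimum and each array left out.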

Additional observations from a re-analysis of the deposited data

Results flagged for a closer look

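Single arrays stood far from the other 5 of their group, by Dixon's criterion at the 95% level, in 9 of the 222 member and group combinations (4.05%), and chance gives about 1 in 20. Among called members, Fabp1 was 13.73 in 485 mg/kg replicate 2, where the other 5 arrays ran from 14.02 to 14.16. Acot2 was 10.42 in 485 mg/kg replicate 4, with the others between 9.84 and 10.04. Cpt1a was 11.57 in 4.85 mg/kg replicate 2, with the others between 11.12 and 11.28. Acadm was 12.80 in vehicle replicate 1, with the others between 12.71 and 12.74, and Etfa was 12.40 in 4.85 mg/kg replicate 6, with the others between 12.23 and 12.29. Leaving out any of these arrays that belong to the vehicle or 485 mg/kg group ended no call of Fabp1, Acot2 or Acadm at 485 mg/kg.

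Among members not called, Hadhb was 12.02 in vehicle replicate 4 (others 11.73 to 11.83) and Decr1 was 12.11 in vehicle replicate 3 (others 12.26 to 12.34). Bdh1 was 11.33 in vehicle replicate 4 (others 11.56 to 11.62), the array without which its fall at 485 mg/kg had an adjusted p of 0.01619 in limma. Pdk4 was 7.28 in 48.5 mg/kg replicate 6 (others 8.35 to 8.80).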

How the results depend on the processing

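Of the 13 calls at 485 mg/kg against vehicle, 12 were kept with any single array of the groups compared left out and under every other setting tried, the 1.5-fold minimum aside. The exception, Ech1, was also lost with quantile normalization (adjusted p = 0.0543) and with only the 12 arrays compared (0.05287). Of the 12 calls kept, that of Ehhadh was kept narrowly, with an adjusted p of up to 0.04999 when 1 array was left out (limma). Of the 8 calls between 485 and 48.5 mg/kg, 5 were kept in the same way: besides Acot8 and Cpt1a, Acadvl was lost with the 12 arrays alone (adjusted p = 0.06061). The call of Slc25a20 at 48.5 mg/kg was lost with quantile normalization (0.05144) and the 12 arrays (0.09544).

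With each array left out in turn, 9 to 13 members were called higher and 3 to 4 lower at 485 mg/kg, 0 to 1 higher and 0 to 0 lower at 48.5 mg/kg, 6 to 8 higher and 0 to 1 lower between these doses, 11 to 14 in the F test and 0 at the 3 lower doses. At 48.5 mg/kg the count higher was 0 with quantile normalization, the 12 arrays or the 1.5-fold minimum. The count lower there was 1 (Acadm) with only the brighter probe sets, the ordinary test or trended robust moderation, and 2 members lay wholly below vehicle with quantile normalization. At 485 mg/kg the mean of probe sets gave 5 lower, adding Plin2 (-0.65, adjusted p = 0.001567) and Bdh1 (adjusted p = 7.97e-04), and the 1.5-fold minimum left 1 higher and 1 lower. In the step, the count lower was 2 with quantile normalization, 3 with the mean of probe sets and 0 with the ordinary test, the 12 arrays or the 1.5-fold minimum, which left 1 higher. The brighter probe sets alone gave 14 higher and 4 lower at 485 mg/kg. The cause of these differences was not tested.

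At 485 mg/kg the sign turned for members that were never called: Hadh (-0.02) and Etfdh (-0.01) with quantile normalization, Hadha (0.01) with median centring and Acaa2 (-0.14) with the mean of probe sets. Over single arrays left out, changes crossed 0 for Hadha (-0.06 to 0.02), Etfb (-0.03 to 0.01), Hadhb (-0.06 to 0.02), Hadh (-0.01 to 0.03), Etfdh (-0.01 to 0.06), Crat (-0.18 to 0.01), Crot (-0.13 to 0.04), Pex11a (-0.02 to 0.14) and Pdk4 (-0.40 to 0.09).

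With the replicate number as a block, 10 members were higher and 3 lower at 485 mg/kg, 1 higher and 0 lower at 48.5 mg/kg, and 8 higher and 1 lower in the step, where Ech1 was added. The block changed no call at the 3 lower doses. Of 39 calls on the further gene and marker lists at 485 mg/kg, 26 were kept with quantile normalization, the ordinary test, the 12 arrays alone and each array left out, alternatives chosen after seeing the data. Quantile normalization and centring moved the median of all probe sets by at most 0.01. Signal near background limits Acot1, and no detection call was made.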
